A study of Mus musculus with 2 samples.

Results

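Open promoters poor in CpG were examined in embryonic mouse retina at day 14.5. The members were the peaks of DNase I cutting within 1 kb of the annotated 5' end of an autosomal protein-coding gene whose surroundings, 500 bp on either side of that 5' end, had a CpG observed/expected ratio below 0.3. A gene was taken only when both libraries had such a peak. Of 20807 autosomal protein-coding genes, 6736 were CpG-poor by this limit and 863 of those had a peak in both libraries. Their member peaks numbered 1354 of 165269 distinct peaks in replicate 1 and 1415 of 219308 in replicate 2. Since the members were selected on the presence of peaks, that presence and the strength of the peaks are given as description and with no test. The study has 1 group, healthy retina of the strain labelled B6NCrl, pooled from male and female embryos, with 2 biological replicates under the same donor label. No other tissue, age, genotype or treatment was compared. Each library was run on several Illumina models and replicate 1 also on a model that replicate 2 was not, so instrument and replicate cannot be told apart.

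Most mammalian promoters lie in CpG islands, stretches that escape DNA methylation in the germ line, keep their CpG dinucleotides and are accessible in nearly every tissue. CpG-poor promoters have lost most of these dinucleotides, are usually methylated where the gene is silent, and belong largely to genes used in few cell types. DNase I cuts where nucleosomes are displaced, so a peak at a CpG-poor promoter marks a start site or a nearby regulatory element that is accessible in at least some cells of the tissue. In bulk tissue, fewer cells with an accessible promoter and less accessibility per cell cannot be told apart.

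The tissue label was checked with defining genes of any CpG content. Over all autosomal genes 65.6% had a promoter peak in both libraries. All 13 retinal genes had one, among them Rax, Pax6, Atoh7, Pou4f2 and Otx2. Peaks were present at 3 of 6 pigment epithelium genes, 1 of 7 lens genes, 2 of 6 endothelial genes, 1 of 4 autosomal blood genes, 3 of 6 muscle genes and 4 of 6 mesenchymal genes. None of the 6 immune, 5 hepatocyte and 5 epidermal genes had a peak in both. The lists differed in CpG content, with 1 of 13 retinal genes CpG-poor against 6 of 6 immune and 4 of 5 epidermal genes, so cell type and CpG class cannot be told apart in these counts. The part of other cell types in the member peaks was not tested.

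The sequences below show what the member peaks look like. They are given 5' to 3' on the strand of the gene, from GRCm38, with capitals at matches on either strand. The motifs marked were the OTX2 and CRX letters TAATCC, the homeodomain letters TAATTA, the bHLH E-box CAGCTG and its variant form CAGATG, the TATA box TATAAA, the CCAAT box, and the GC box GGGCGG. Also marked were the CTCF core (CC and GG around a central AG, with 3 free bases before the AG and 2 after it) and a palindrome of the RFX type (TTGC, 3 free bases and the reverse complement of TTGC). Letters that match are a description of the sequence and not evidence of binding. Aipl1, Gfap, Gnb3, Grk1, Angptl2, Btbd17 and Cirbp are shown with their whole replicate 1 peak, which overlapped no annotated exon. Of the peaks of Crx, Mfng, Fam92b and Ppp1r32 only the stretch outside exons is shown, and these 4 were chosen after their values were seen.

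The photoreceptor genes are Crx at chr7:15879969-15880085 (minus strand), Gnb3 at chr6:124840456-124840605 (minus strand), Grk1 at chr8:13404796-13404945 (plus strand) and Aipl1 at chr11:72038116-72038265 (minus strand), all upstream of the gene and between annotated genes.
Crx: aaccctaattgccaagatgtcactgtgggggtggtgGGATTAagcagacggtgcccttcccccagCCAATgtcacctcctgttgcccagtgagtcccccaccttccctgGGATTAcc
Gnb3: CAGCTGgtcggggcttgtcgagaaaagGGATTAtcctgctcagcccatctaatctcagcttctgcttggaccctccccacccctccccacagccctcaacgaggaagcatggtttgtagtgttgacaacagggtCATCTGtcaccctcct
Grk1: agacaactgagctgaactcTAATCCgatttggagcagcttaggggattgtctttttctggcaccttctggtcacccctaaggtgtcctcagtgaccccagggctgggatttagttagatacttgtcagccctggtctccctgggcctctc
Aipl1: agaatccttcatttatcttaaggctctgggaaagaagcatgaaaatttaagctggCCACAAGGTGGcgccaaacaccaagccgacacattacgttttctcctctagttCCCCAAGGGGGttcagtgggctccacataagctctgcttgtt
Crx, the homeodomain factor of photoreceptor precursors, held the letters GGATTA, the reverse complement of TAATCC, at 81 and 8 bp before its own 5' end, with CCAAT between them. Gnb3 and Grk1 held 1 such match each. Aipl1 held 2 matches to the CTCF core and no TAATCC. Among photoreceptor members not shown, Sag held TAATCC in both libraries. Crb1, Nrl, Cnga3, Cngb3 and Opn1sw held none in the stretch of their replicate 1 peak outside exons. Over all members a mean of 4.69% of the strongest peaks held it, so the genes shown do not give its frequency.

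Mfng at chr15:78773476-78773605 (minus strand), Angptl2 at chr2:33215896-33216045 (plus strand) (in an intron of Ralgps1) and Btbd17 at chr11:114795356-114795505 (minus strand) (in its own intron) are examples of strong peaks with CAGCTG. Their choice says nothing on how common it is. C1qtnf6, Ptms, Amt and Plat, also among the strongest, held no CAGCTG in their replicate 1 peaks, and over all members a mean of 20.4% of strongest peaks held it.
Mfng: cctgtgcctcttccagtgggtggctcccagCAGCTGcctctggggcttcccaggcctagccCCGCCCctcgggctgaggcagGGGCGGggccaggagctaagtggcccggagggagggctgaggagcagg
Angptl2: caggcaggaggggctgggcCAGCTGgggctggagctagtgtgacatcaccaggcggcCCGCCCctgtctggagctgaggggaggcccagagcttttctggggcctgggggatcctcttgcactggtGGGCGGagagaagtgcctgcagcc
Btbd17: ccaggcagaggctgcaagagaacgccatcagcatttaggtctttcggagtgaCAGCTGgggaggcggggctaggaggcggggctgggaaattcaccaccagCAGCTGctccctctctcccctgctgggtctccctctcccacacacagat
Gfap at chr11:102900936-102901085 (minus strand) is the glial member with the strongest peak, and held 1 match to the CTCF core and 1 CpG in 150 bp. Its peak also lies in an intron of Gm26668.
Gfap: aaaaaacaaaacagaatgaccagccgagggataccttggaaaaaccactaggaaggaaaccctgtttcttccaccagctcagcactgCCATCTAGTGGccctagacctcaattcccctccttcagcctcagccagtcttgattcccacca
Fam92b at chr8:120177467-120177605 (minus strand) (in an intron of Gm20388) and Ppp1r32 at chr19:10482929-10483025 (minus strand) carried the RFX-type palindrome.
Fam92b: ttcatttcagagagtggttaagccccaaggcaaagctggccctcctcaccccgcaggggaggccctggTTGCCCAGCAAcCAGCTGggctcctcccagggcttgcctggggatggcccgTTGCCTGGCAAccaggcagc
Ppp1r32: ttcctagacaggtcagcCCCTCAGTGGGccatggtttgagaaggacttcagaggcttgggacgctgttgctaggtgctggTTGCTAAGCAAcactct
Cirbp at chr10:80165116-80165265 (plus strand) is shown for contrast, as its peak held 8 CpGs although the 5' end lies in CpG-poor sequence.
Cirbp: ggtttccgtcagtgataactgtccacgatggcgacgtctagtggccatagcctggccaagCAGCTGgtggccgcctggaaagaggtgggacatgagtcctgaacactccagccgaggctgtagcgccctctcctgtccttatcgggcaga

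The share of genes with a peak was higher at promoters with more CpG. In both libraries together, 863 of 6736 CpG-poor genes had a peak (12.8%), against 74.0% of genes with a ratio from 0.3 to 0.6, 98.2% of genes at 0.6 or more and 65.6% of all 20807. Within the CpG-poor class the share was 2.98% below a ratio of 0.1, 9.44% from 0.1 to 0.2 and 25.9% from 0.2 to 0.3, where 528 of the 863 members lie. Replicate 1 alone gave 996 CpG-poor genes (14.8%) and replicate 2 alone 1237 (18.4%). These shares are what the rule selected on, and the intervals cover counting error only.

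**Figure D1:**
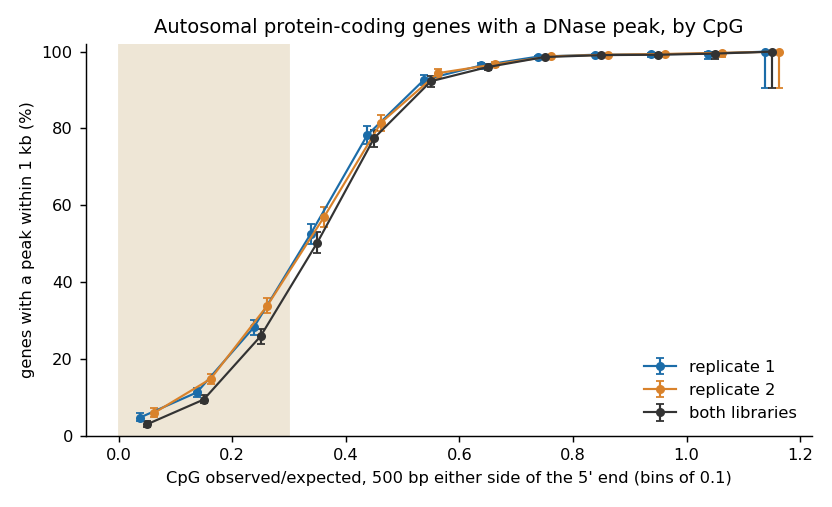
Percent of autosomal protein-coding genes with a DNase peak within 1 kb of the 5' end (y axis) against the CpG observed/expected ratio of the promoter in bins of 0.1 (x axis), for each library and for both together. Bars are exact 95% intervals, and the shaded range below 0.3 holds the members. The share in both libraries climbs from 2.98% in the lowest bin to 96.0% at ratios from 0.6 to 0.7.

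Genes just inside and just outside the CpG limit had peaks of overlapping rank. The members closest below 0.3 were Klhl33 (0.29997), Mxra8 (0.29990) and Slc25a45 (0.29967), with within-library ranks of 71.7, 71.7 and 80.7 in replicate 1 and 67.9, 82.1 and 87.8 in replicate 2. A rank is the percentile of a gene's strongest peak among all distinct peaks of its library by the authors' deposited score, with 100 the strongest. The genes closest above the limit were Zfp937 (0.30014), Trim66 (0.30027) and 3300002I08Rik (0.30029), with ranks of 65.0, 61.7 and 89.2 in replicate 1 and 76.0, 65.5 and 95.0 in replicate 2.

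The name of the group did not hold for every member. A window of 1 kb can reach another start site, and 71 of the 863 genes (8.23%) had a CpG-rich start of the same gene (ratio of 0.6 or more) within 1 kb of their strongest peak. A further 20 (2.32%) had a CpG-rich start of a neighbouring gene there, 133 (15.4%) a start of middle CpG, and 639 (74.0%) only CpG-poor starts. The gene with the highest rank of all was of the first kind. Sod2, the mitochondrial superoxide dismutase, had ranks of 99.2 and 99.5 in replicates 1 and 2, with the peak centred 984 bp downstream of the annotated 5' end in sequence with a ratio of 0.821. Capza2, an actin-capping subunit, had 98.7 in both libraries, and Gapdh, the glycolytic enzyme, had 98.7 and 98.2. Tkt, a transketolase of the pentose phosphate pathway, had 98.3 and 98.9 and Uba2, a subunit of the SUMO-activating enzyme, had 97.9 and 99.5. In these widely expressed genes the annotated 5' end of the gene, which the rule used, lay upstream of a CpG-rich start site.

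Peak strength followed the CpG content of the start sites near the peak. Over all members the median rank was 65.0 in replicate 1 and 74.1 in replicate 2, a mean of 69.6 ± 6.46 (SD, n = 2). Members with only CpG-poor starts had medians of 60.5 and 70.1, those near a start of middle CpG 71.7 and 78.9, those near a CpG-rich start of the same gene 90.8 and 91.8, and those near a CpG-rich start of a neighbour 91.3 and 93.0. Open genes, meaning those with a peak in both libraries, had medians of 88.2 and 91.5 at promoter ratios from 0.3 to 0.6, and of 96.5 and 97.3 at CpG-rich promoters. Of the 639 members with only CpG-poor starts, 57 in replicate 1 and 94 in replicate 2 ranked at 90 or higher, so strong peaks were present there too. In the authors' hotspot lists, the hotspot under the peak was at the authors' ceiling of 100 (−log10 of the false discovery rate) for 45.4% and 65.6% of members with only CpG-poor starts, and for 96.4% and 98.1% of open CpG-rich genes. Hotspots of members with only CpG-poor starts were also narrower, with a median width of 332 and 455 bp against 1259 and 1582 bp at open CpG-rich genes. Over all members the median was 383 and 530 bp. A single peak lay in the window of 545 members (63.2%) in replicate 1 and 478 (55.4%) in replicate 2.

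**Figure D2:**
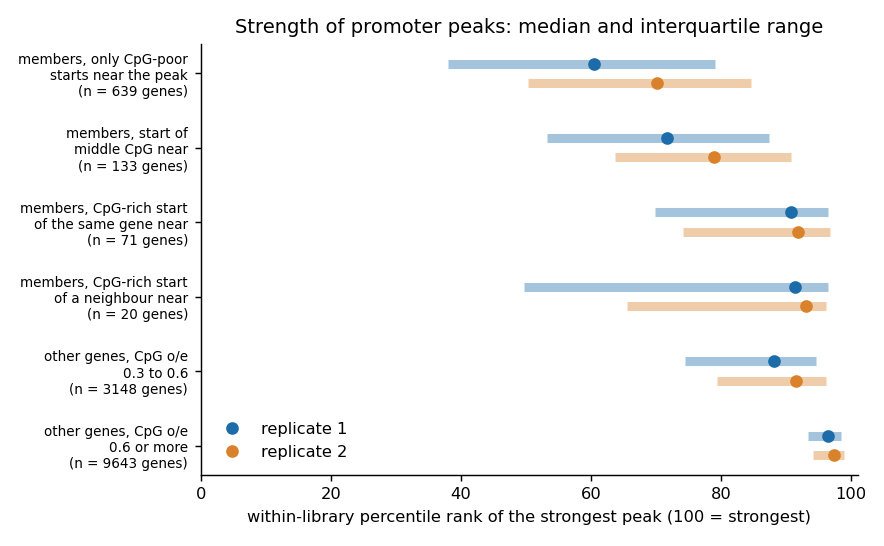
Within-library percentile rank of the strongest promoter peak (x axis, 100 is the strongest) for 4 sets of members and for open genes of higher CpG (y axis). Points are medians over genes and bars are interquartile ranges, drawn for each library. Members with only CpG-poor starts sit lowest, at medians of 60.5 and 70.1, and members near a CpG-rich start overlap the genes of higher CpG.

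The sets were defined by the CpG ratio of start sites near the peak, so the CpG content around the peaks largely restates the split and is given as description. Around the strongest peak of members with only CpG-poor starts the median ratio was 0.220 in replicate 1 and 0.221 in replicate 2, with a median of 3 CpGs in the 150 bp of the peak, and 87 and 82 of the 639 peaks held none. Peaks of members near a CpG-rich start of the same gene had a median ratio of 0.694 and 0.690 and 15 and 14 CpGs. A few members with only CpG-poor starts had a peak in CpG-rich sequence, 5 in replicate 1 and 6 in replicate 2. Cirbp, a cold-inducible RNA-binding protein, was one, with a ratio of 0.633 around its peak and ranks of 97.7 and 97.3. Mfng, which adds sugars to Notch receptors, had ranks of 97.1 and 97.8 in sequence with a ratio of 0.278. Other members with only CpG-poor starts and ranks above 94 in both libraries, chosen after their values were seen, came from varied functions. Angptl2, a secreted angiopoietin-like protein, ranked 95.4 and 98.2 and Btbd17, a BTB-domain protein, 96.1 and 98.0. Plat, the tissue plasminogen activator, ranked 94.8 and 96.6 and Tef, a bZIP factor of circadian output, 95.2 and 96.8. Fam92b ranked 96.9 and 97.0 and Ptms, parathymosin, 95.4 and 97.5.

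The position of the peaks is also a description, since CpG-poor sequence around the 5' end leaves a CpG-rich start little room except at a distance. The strongest peak was centred upstream of the 5' end in 47.0% of all members in replicate 1 and 47.3% in replicate 2 (mean 47.2 ± 0.164%, SD, n = 2). With only CpG-poor starts the share was 55.7% and 55.2%, and 51.8% and 52.6% of peaks were centred within 250 bp of the 5' end. The 100 bp just upstream of the 5' end held 22.2% and 22.1% of the peaks of members with only CpG-poor starts. It held 28.4% and 31.0% at open genes of middle CpG and 42.0% and 44.6% at open CpG-rich genes. With a CpG-rich start of the same gene the peak lay more than 500 bp downstream in 88.7% and 84.5%, and within 250 bp in 8.45% and 5.63%. Across the outermost bins of the CpG-poor set, 500 bp or more from the 5' end, each 100 bp held between 1.25% and 4.38% of the peaks in replicate 1.

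**Figure D3:**
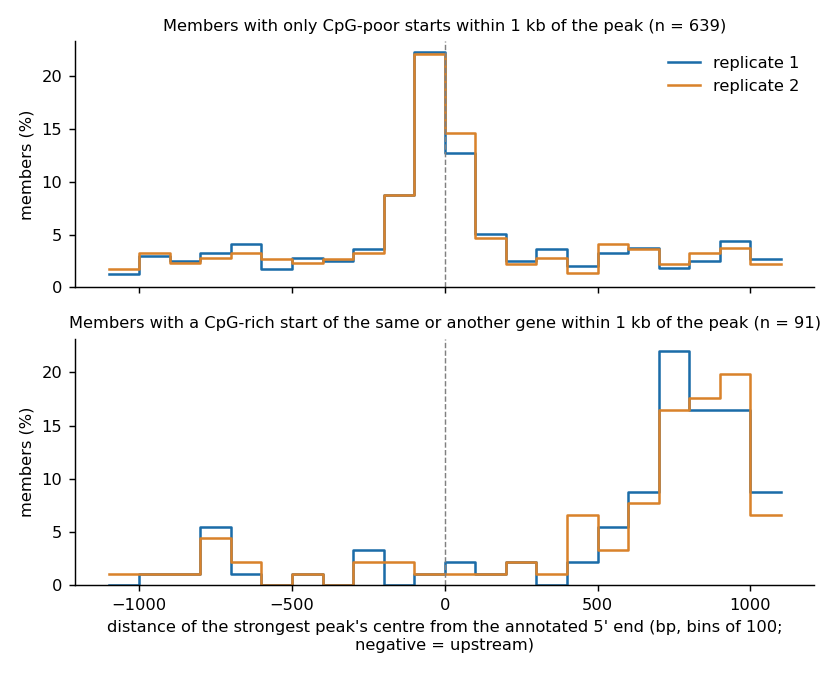
Distance of the centre of the strongest peak from the annotated 5' end (x axis, bp, negative is upstream) against the percent of members in bins of 100 bp (y axis), for members with only CpG-poor starts near the peak (top, n = 639) and members with a CpG-rich start of the same or another gene near it (bottom, n = 91), each library drawn as a line. The top set has its highest bin in the 100 bp before the 5' end, with 22.2% and 22.1% of peaks, and the bottom set lies mainly downstream. Open CpG-rich genes, not drawn, had 42.0% and 44.6% in that bin.

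In most members the strongest peaks of the 2 libraries overlapped, though fewer had the same position. The same start was found in 227 members (26.3%), against 31.9% of open genes of middle CpG and 29.8% of open CpG-rich genes. Centres lay within 20 bp in 522 members (60.5%), against 68.4% and 69.6%. The strongest peaks of the 2 libraries overlapped by at least 1 bp in 769 of 863 genes (89.1%), against 90.4% of open genes of middle CpG and 92.2% of open CpG-rich genes. Across the 863 genes, which are not independent replicates and share their libraries, the ranks had a Spearman correlation of 0.934. Replicate 2 ranked higher in 696 genes, by a median of 5.08 percentile points. Among the 4 genes with the largest rank difference in each direction, 6 of the 8 had strongest peaks that did not overlap. Gkap1 ranked 12.4 in replicate 1 and 84.6 in replicate 2, and Fgfr1, a receptor for fibroblast growth factors, 82.7 and 12.7. Krt77, a keratin, had overlapping peaks at 8.47 and 56.5. CpG-poor genes with a peak in only 1 library had a median rank of 6.94 at 133 genes of replicate 1 and 25.4 at 374 genes of replicate 2, but ranks there reached 98.1 at Tcf4 in replicate 1 and 96.8 at Gm49027 in replicate 2. The 863 genes had 848 distinct strongest peaks in replicate 1 and 849 in replicate 2, since 15 and 14 peaks served 2 genes each, such as the pair Tmem176a and Tmem176b, the pair Bco2 and Il18, and the pair Sncg and Mmrn2.

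Of the CpG-poor genes in eye lists, a larger share had a peak than of all CpG-poor genes. The eye lists held 69 CpG-poor genes and 28 of them (40.6%, 95% exact Clopper-Pearson interval 28.9 to 53.1%) had a peak in both libraries, against 12.8% of all CpG-poor genes and 8.05% (7 of 87, 3.30 to 15.9%) of those in lists of other tissues. Replicate 2 alone gave 35 eye genes and 14 genes of other tissues, and replicate 1 alone 28 and 9, so the count for other tissues was 14 in place of 7 without replicate 1. These are counts over chosen lists and carry no test. The lists were not matched to all CpG-poor genes in CpG ratio or gene family. The share of all CpG-poor genes was 16.1% without odorant, vomeronasal, taste and trace-amine receptors, and 25.9% at ratios from 0.2 to 0.3. Outside the CpG-poor class, 136 of 157 genes of the eye lists (86.6%) had a peak in both libraries. That is beside 12791 of all 14071 autosomal genes outside the class (90.9%). These eye lists ran from all 18 genes of the progenitor list and all 23 of the ganglion cell list to 12 of 21 genes of phototransduction and the outer segment (57.1%).

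**Figure D4:**
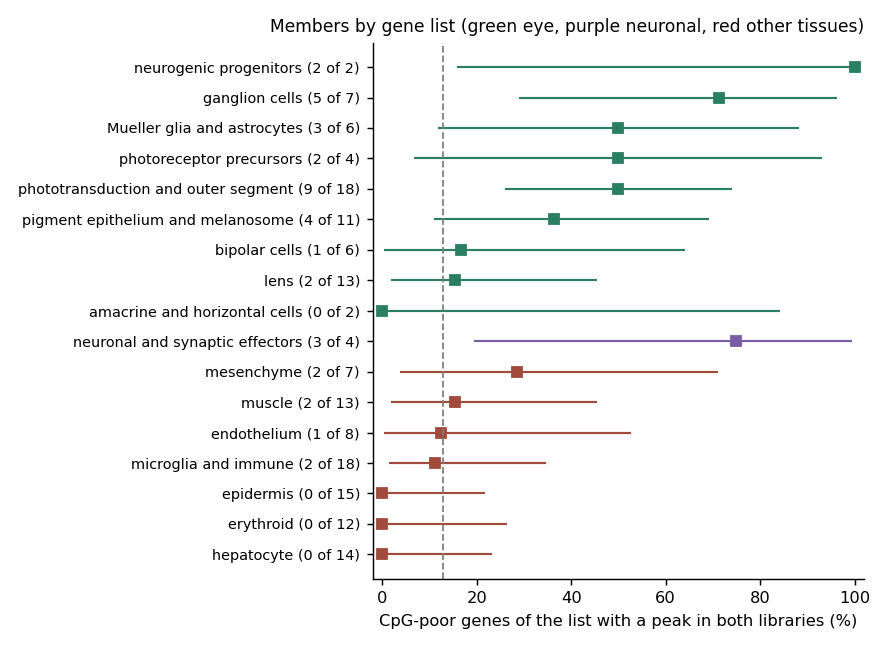
Percent of the CpG-poor genes of each list with a peak in both libraries (x axis), with counts beside the list names (y axis) and exact 95% intervals as lines. The dashed line is the 12.8% of all CpG-poor genes, and the list of retinal progenitors, with a single CpG-poor gene, is not drawn. Eye and neuronal lists reach from 0 to 100% and lists of other tissues from 0 to 28.6%.

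In the neurogenic lineage both CpG-poor genes were members. Besides Mfng, Neurod4, a bHLH factor of differentiating retinal neurons, had ranks of 69.5 in replicate 1 and 76.6 in replicate 2 with peaks 10 and 30 bp before its 5' end. Notch1, the CpG-poor gene of the progenitor list, had no peak within 1 kb of its annotated 5' end. Among ganglion cell genes, 5 of 7 were members. Stmn2, which regulates microtubules in growing axons, ranked 86.6 and 91.1. Nhlh2, a bHLH factor of early neurons, ranked 65.0 and 68.7, and Sncg, gamma-synuclein, 57.9 and 69.4. Isl2, a LIM homeodomain factor of a subset of ganglion cells, ranked 38.0 and 35.6 and its peaks differed between the libraries, 558 bp downstream and 22 bp upstream. Chrnb3, a nicotinic receptor subunit, was the weakest at 12.4 and 25.4, also with peaks that did not overlap. Chrna6 had no peak and Rbfox3 had one in replicate 2 alone, at rank 58.8.

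Photoreceptor genes fell into members and genes with no peak. Crx ranked 64.0 in replicate 1 and 79.4 in replicate 2, and Nrl, the factor that directs rod fate, 54.9 and 71.5, whereas Ankrd33 and Gngt2 of the same list had no peak. Of 18 CpG-poor genes of phototransduction and the outer segment 9 were members. Crb1, a polarity protein of photoreceptor and Müller cell contacts, ranked 94.6 and 99.1, and Aipl1, a chaperone of the photoreceptor phosphodiesterase, 90.5 and 91.1 with its peak 681 bp upstream. The other 7 were weaker in both libraries. Gnb3, the beta subunit of cone transducin, ranked 59.3 and 76.6. Sag, rod arrestin, ranked 49.7 and 53.0, and Grk1, rhodopsin kinase, 51.5 and 47.5. The cone channel subunits Cnga3 (35.2 and 55.4) and Cngb3 (32.3 and 42.8), the short-wave cone opsin Opn1sw (29.3 and 44.4) and the rod channel subunit Cnga1 (26.2 and 25.4) were lower still, and the peaks of Opn1sw did not overlap between the libraries. No peak was called in both libraries at Gnat1, Gngt1, Cngb1, Pdc, Rp1, Rpgrip1, Impg1, Gngt2 and Pde6g, of which Pde6g had one in replicate 2 at rank 31.7. Of the rod genes in this list Sag, Grk1 and Cnga1 were members, while rod transducin Gnat1 and the channel subunit Cngb1 had no peak in either library. Outside the lists, and chosen after their values were seen, Rd3, an inhibitor of retinal guanylate cyclase, ranked 78.0 and 88.7 and Ppef2, a photoreceptor phosphatase, 62.9 and 78.9.

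Of the CpG-poor genes in the glial list, 3 of 6 were members. Gfap, an intermediate filament of astrocytes and reactive Müller glia, ranked 91.6 in replicate 1 and 94.7 in replicate 2, with the peak 98 and 118 bp upstream, and Fabp7, a fatty acid-binding protein of progenitors and glia, 81.2 and 83.6. Rlbp1, the retinaldehyde-binding protein of Müller glia and pigment epithelium, ranked 60.5 and 53.0, and Aqp4, S100b and Abca8a had no peak. Of 11 CpG-poor pigment cell genes 4 were members. Dct, the melanin enzyme dopachrome tautomerase, ranked 79.1 and 89.1, and Oca2, a melanosome transporter, 35.2 and 51.7. Slc38a8, an amino acid transporter, ranked 49.7 and 56.5 with peaks that did not overlap, and Ttr, transthyretin, a carrier of thyroid hormone and retinol-binding protein, 35.2 and 59.8. Tyr, Rpe65, Best1 and Mlana had no peak and Tyrp1 had one in replicate 2 alone. Of 13 CpG-poor lens genes 2 were members, Bfsp2, a lens filament protein, at 53.3 and 67.9 and Cryba1, a crystallin, at 32.3 and 14.7. Replicate 2 alone gave 5 lens genes. The other 6 CpG-poor crystallins had no peak in either library. Of bipolar cell genes, which belong to a cell type born after birth for the most part, 1 of 6 was a member, Lrtm1 at 51.5 and 46.0, and 2 in replicate 2 alone. Neither Gad1 nor Th of the amacrine list had a peak. Neuronal effectors had 3 members of 4, Stmn4 (86.2 and 90.0), Celf3 (83.2 and 92.8) and Cck (65.0 and 64.6), the last near a CpG-rich start of the same gene. Of the 28 members in eye lists, 24 had only CpG-poor starts near the peak. Stmn2, Dct, Rlbp1 and Cnga1 lay near a start of middle CpG.

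**Figure D5:**
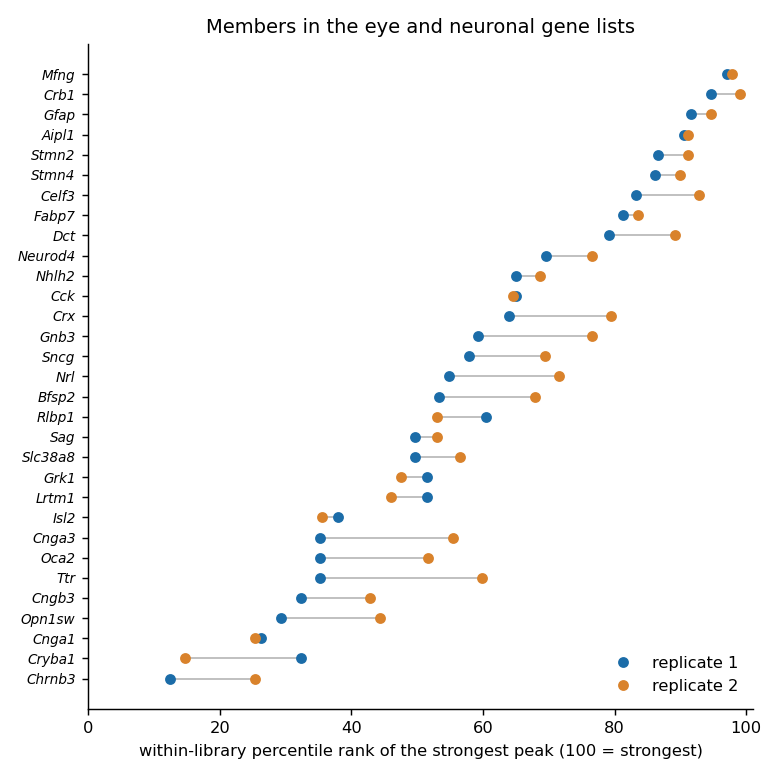
Within-library percentile rank of the strongest peak (x axis, 100 is the strongest) in replicate 1 and replicate 2 for the 31 members in eye and neuronal lists (y axis, ordered by the lower rank). Mfng, Crb1, Gfap and Aipl1 lie above 90 in both libraries, and Chrnb3, Cryba1 and Cnga1 lie lowest.

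In the lists of other tissues, 7 CpG-poor genes were members. Tmem119, known as a microglial marker, ranked 82.2 in replicate 1 and 89.6 in replicate 2, and Cd68, a lysosomal protein of phagocytes, 59.3 and 57.7, while 15 of the 18 CpG-poor immune genes, including Ptprc, Csf1r, Cx3cr1 and Trem2, had no peak in either library. Ckm, the muscle creatine kinase, ranked 87.8 and 90.4 with its peak 814 and 854 bp downstream, and Myh3, an embryonic myosin, 45.5 and 74.8. The muscle count of 2 of 13 was 3 in replicate 1 alone and 4 in replicate 2 alone. Col1a2, a collagen chain, ranked 53.3 and 71.5 with peaks 936 and 436 bp downstream that did not overlap, and Dcn, the proteoglycan decorin, 26.2 and 48.9. Mmrn2, an endothelial matrix protein, ranked 57.9 and 69.4 through the same peak as Sncg, which lay 755 and 695 bp upstream of Mmrn2 and 79 and 19 bp inside Sncg. The other 7 CpG-poor endothelial genes, among them Cdh5 and Pecam1, had no peak. None of 12 erythroid, 14 hepatocyte and 15 epidermal CpG-poor genes had a peak in both libraries, although 1 erythroid gene in each library and 2 epidermal genes in replicate 2 had one.

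Symbol families showed a wide spread around the 12.8% of all CpG-poor genes. The families here and below were not matched in CpG ratio. Within the CpG-poor class the share itself ran from 2.98% below a ratio of 0.1 to 25.9% from 0.2 to 0.3. The part of CpG ratio in the family shares was not tested. Ion channel subunits had the highest share of the families counted, 26 of 73 (35.6%, exact interval 24.7 to 47.7%). Kcna5 and Kcnj9, potassium channel subunits, ranked 87.8 and 90.0, and 83.2 and 83.6, with peaks at the 5' end, and Kcnj13, a channel of pigment epithelium, 79.1 and 85.1. Lineage factors of the homeobox, bHLH, Sox, Fox, Pou and similar families had 10 of 35 (28.6%, 14.6 to 46.3%). Lhx3, a LIM homeodomain factor, was the highest of them at 91.1 in replicate 1 and 94.0 in replicate 2 with the peak on its 5' end. Pou2f3 (87.0 and 91.5) had its peak 941 bp upstream in both libraries, and Ets1 (69.5 and 77.7) had peaks 51 and 31 bp upstream. Collagens and matrix proteases had 7 of 26 (26.9%), led by Col22a1 at 87.8 and 95.2. Receptors coupled to G proteins had 13 of 67 (19.4%; 14 and 22 in replicate 1 and replicate 2 alone), among them Opn4, the melanopsin of light-sensitive ganglion cells, at 66.9 and 80.5. Cytochromes P450 and related enzymes had 13 of 113 (11.5%) and interleukins, chemokines and their receptors 12 of 111 (10.8%). Solute carriers had 17 of 100 (17.0%) and zinc finger proteins 10 of 58 (17.2%).

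The lowest shares were at genes of other sense organs and skin. Odorant, vomeronasal, taste and trace-amine receptors supplied 1486 of the 6736 CpG-poor genes and 18 members (1.21%, exact interval 0.719 to 1.91%), with 31 genes in replicate 1 alone and 47 in replicate 2 alone. Without them the share of CpG-poor genes with a peak in both libraries was 16.1%. Tas1r1, a taste receptor, had the strongest peak of this family, 96.5 and 92.5, near a CpG-rich start of a neighbouring gene, and Olfr156 followed at 77.4 and 79.4. Keratins and cornified envelope proteins had 3 of 110 (2.73%), the strongest of which was Krt24 at 32.3 and 61.8. Defensins and secretoglobins had 5 of 93 (5.38%), serpins and other protease inhibitors 5 of 80 (6.25%) and lectin-like and leukocyte receptors 10 of 157 (6.37%). These counts also depended on the library. Replicate 1 alone and replicate 2 alone gave 4 and 8 keratins, 8 and 10 defensins, 8 and 11 serpins, and 13 and 23 leukocyte receptors.

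The E-box CAGCTG and the CTCF core were each common in the strongest peaks of members with only CpG-poor starts. Shares are given for replicate 1 and replicate 2, and the sets differ in base composition, so they are a description. CAGCTG was present in 21.0% and 23.3% of the 639 peaks, in 7.33% and 7.16% of peaks at open CpG-rich genes, and in 15.4% and 15.7% of distal peaks (over 1 kb from any start) with CpG-poor surroundings. It was present in 8.05% of the 150 bp before the 5' end of CpG-poor genes with no peak and in 7.66% of that stretch over all autosomal genes. Cirbp, Mfng, Fam92b and Btbd17 were the highest members with it in both libraries. The CTCF core was present in 29.0% and 29.3% of the member peaks, 22.6% and 22.1% of CpG-rich ones, 21.7% and 19.5% of the distal ones, and 15.6% of all stretches before a 5' end. Its share did not follow the CpG content of nearby starts. The mean was 29.1% both in these members and in members near a CpG-rich start. It was 21.8% in members near a start of middle CpG and 23.7% at open genes of middle CpG. The highest members with the core in both libraries were Amt, Hcrt, Hsd3b7 and Muc1. The core can share letters with CAGCTG, which it did in 8 peaks of each library, and with CAGATG, in 10 and 9.

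Motifs of CpG-island promoters were scarcer in the member peaks than at CpG-rich genes. GGGCGG, the GC box, was present in 14.2% and 15.5% of the 639 peaks, in 62.7% and 61.8% at open CpG-rich genes, in 3.11% and 3.21% of CpG-poor distal peaks and in 35.6% of all stretches before a 5' end. The ETS letters CCGGAAG were present in 0.782% and 1.10% of member peaks 16.1% and 15.8% of CpG-rich ones and 6.77% of all stretches. CCAAT differed less, with 21.3% and 22.4% against 28.7% and 30.2%, and 26.8% of all stretches. TATAAA lying within the stretch from 40 to 15 bp before the 5' end was found on the gene strand in 19 of the 639 genes (2.97%), in 5.91% of CpG-poor genes with no peak, in 0.767% of open CpG-rich genes and in 2.48% of all autosomal genes. Hcrt, the precursor of the orexin peptides, Muc1, a membrane mucin, and Dapl1 had the highest ranks among the 19. These ranks belong to the strongest peak, which need not cover the TATA letters. Dapl1 held TATAAA in its strongest peaks of both libraries, and Hcrt and Muc1 did not. Among the 311 members with only CpG-poor starts and peaks within 250 bp of the 5' end, 8 (2.57%) had TATAAA in the stretch before it.

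The homeodomain and CAGATG motifs were less frequent in member peaks than in CpG-poor distal peaks, and the single RFX motif GTTGCCA was more frequent. The OTX and CRX motif differed little between these sets, and its share was close to that at CpG-poor genes with no peak. TAATCC was present in 5.48% and 5.79% of the 639 peaks and in 6.03% and 6.62% of CpG-poor distal peaks, against 1.35% and 1.62% at open CpG-rich genes, 3.99% of all stretches before a 5' end and 6.32% of those of CpG-poor genes with no peak. The highest members with it in both libraries included Kcnj9 and Caps2 (80.7 and 84.1), and Crx was among the 27 in all. TAATTA was present in 2.97% and 2.50% of member peaks 5.91% and 7.41% of CpG-poor distal peaks and 2.81% of all stretches. CAGATG was present in 14.4% and 13.9%, against 17.4% and 17.8% of CpG-poor distal peaks 3.36% and 3.46% of CpG-rich ones and 7.71% of all stretches. The RFX-type palindrome was added after member sequences were seen, so its share in these same peaks is a description only. It was present in 1.56% and 1.72% of member peaks and in 0.443% and 0.446% of CpG-poor distal peaks. Of CpG-rich peaks 0.228% and 0.270% held it, and of all stretches before a 5' end 0.336%. In both libraries 10 members held it, led by Fam92b (96.9 and 97.0), Ppp1r32 (93.2 and 94.7), Dapl1 (92.8 and 96.6) and Stmn4 (86.2 and 90.0). The single RFX motif GTTGCCA was present in 4.54% and 4.23% of member peaks, 2.78% and 2.80% of CpG-poor distal peaks, 2.18% and 2.17% of CpG-rich ones and 2.26% of all stretches. At open genes of middle CpG its mean share was 4.38%, equal to the mean of 4.38% in these member peaks, so it was not particular to them. GTTGCCA shared letters with the palindrome in 2 peaks of each library.

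Members lay among more distal peaks than CpG-poor genes with no peak. In replicate 1 the members' median was 6 distal peaks within 50 kb, and in replicate 2 it was 7 (mean 6.50 ± 0.707, SD, n = 2), and the 5366 CpG-poor genes with no peak in either library had medians of 2 and 3 (2.50 ± 0.707). Without the chemosensory receptors, which lie in large clusters, the medians were 6 and 8 for members and 3 and 5 for genes with no peak. No distal peak was present in that window for 3.24% and 2.20% of members and for 28.9% and 25.0% of genes with no peak. Open genes of middle and high CpG had medians of 5 and 7, close to those of the members. The counts come from the same libraries as the rule.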

How the data were processed

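Chromatin accessibility was measured by DNase-seq in 2 libraries of embryonic retina, replicate 1 and replicate 2. Per the deposited file lists, peaks and hotspots were called by the authors in each library on its own, on mm10 per the labels. Aligner, caller and settings were not given in the sources used here. Peak lists deposited by the authors carry a score from 1 to 150 per peak, whose meaning is not stated. It was turned into a percentile rank over the distinct peaks of a library, ties at their mean, after 34 and 56 duplicate lines were dropped. The hotspot lists deposited by the authors carry a −log10 false discovery rate. Read depth is unknown, since the peak and hotspot lists hold no read numbers, and no detection limit can be given.

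GENCODE release M21 on GRCm38, the assembly of mm10, gave 5' ends, start sites and exons, and its sequence gave the CpG ratio, the number of CpGs times the length over the product of C and G counts. A gene had a peak when one overlapped the window of 1 kb on either side of its 5' end by at least 1 bp, and its strongest peak was used. Motif letters were matched on both strands. Scripts ran in Python 3.11.15 with numpy 2.4.6, pandas 2.3.3 and scipy 1.17.1, and were tested on simulated data. With 1 group of 2 libraries no test between conditions was possible. Intervals are exact Clopper-Pearson at 95%.

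The members, the 18 gene lists, the 16 symbol families and the 24 motifs were chosen with earlier results of these data known. Genes named were the 20 members with the highest lower rank, up to 4 per list, family and motif, all members of eye lists, those nearest the CpG limit, those with the largest rank differences, and members whose sequence is shown. Others (Kcnj13, the genes sharing a peak, and listed genes with no peak) were chosen after their values were seen. Results for some items are not reported here. Alternatives tried were other distances, CpG limits and widths, stronger or whole-number peaks, peak centres, and each library alone.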

Additional observations from a re-analysis of the deposited data

How the results depend on the processing

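Each choice was changed on its own. The number of CpG-poor genes with a peak in both libraries, 863, became 603 within 500 bp of the 5' end, 335 with a CpG limit of 0.2 and 1566 with a limit of 0.4. It became 567 when only peaks ranked 50 or higher were used, and 996 to 1237 in a single library. The median rank of 69.6 became 64.3 within 500 bp, 80.8 with the stronger peaks and 57.9 to 58.8 in a single library. The share of members with the peak upstream, 47.2%, became 54.5% within 500 bp of the 5' end, 50% and 46.4% with CpG limits of 0.2 and 0.4, 42.0% and 54.5% with CpG measured over 250 and 1000 bp on either side, 47.6% with the stronger peaks, 47.8% without peaks whose score is in decimal form, 48.0% by peak centre and 47.5 to 48.2% in a single library. The share near a CpG-rich start, 10.5%, became 5.14% within 500 bp, 15.5% and 2.46% with CpG measured over 250 and 1000 bp, 13.4% with the stronger peaks and 8.49 to 9.44% in a single library.

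Overlap of the strongest peaks was 95.9% in place of 89.1% with the stronger peaks. The median of distal peaks near members, 6.50, became 3.50 with the stronger peaks and 2.50 within 20 kb, and that near CpG-poor genes with no peak, 2.50, became 1 and 0.750, so the order was kept in both settings. In all members the GC box share of 20.6% became 26.5% over 300 bp and 16.8% without members near a CpG-rich start. The CTCF core share of 28.0% became 37.5% and 27.8%, and the CAGCTG share of 20.4% became 30.6% over 300 bp. The list count of 28 eye genes was 28 to 35 and that of 7 genes of other tissues 9 to 14 in a single library. The palindrome and the restriction to CpG-poor starts were chosen after seeing the data. The upstream share was thus below 50% in the main setting and above it within 500 bp and with CpG over 1000 bp. No paired analysis was possible because the study has 1 group. Read depth is unknown, so a gene with no peak cannot be told apart from one below detection.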
